A study of Mus musculus with 16 samples.

Results

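The genes described here are 9 markers of cortical neuron identity, chosen by name as known layer markers among the 55266 genes in the count matrices: Cux1, Cux2, Rorb and Lamp5 for the upper layers, Fezf2, Tbr1, Bcl11b and Crym for the deep layers, and Neurod6 for excitatory neurons of the forebrain as a whole. For each gene, the counts of all its transcripts were summed, which took in 48 of 142435 transcripts. All 9 genes were detected in frontal cortex of both genotypes.

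The study asked whether nonsense-mediated RNA decay (NMD), which removes aberrant and some normal messenger RNAs, acts on different transcripts in different parts of the mouse brain. Frontal cortex (FC) and cerebellum (Cere) were taken from adult mice that lack Upf3b, an X-linked NMD factor (Upf3b-KO), and from control littermates (Ctrl), with 4 libraries for each region and genotype. No sex, exact age, other allele or treatment was given in the sources used here, and the deletion is not restricted to a cell type. RNA was depleted of ribosomal RNA and read in bulk, so a level below is a mean over all cells in a piece of tissue, and fewer cells of a type and less RNA per cell cannot be told apart.

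The neocortex is built of layers of excitatory neurons that send their axons to different targets. Upper-layer neurons connect mainly within the cortex, while deep-layer neurons project to the thalamus, brainstem and spinal cord. These fates are set during development by transcription factors that partly repress each other, and many of these factors, with the surface and metabolic genes that accompany them, remain expressed in the adult. The cerebellum has no such neurons: its cortex is made of granule cells, Purkinje cells and inhibitory interneurons.

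The 15 libraries used held between 27660078 and 35238677 counts. Levels are given as CPM, the count of a gene scaled to the total of its library, and 3 counts corresponded to between 0.0851 and 0.108 CPM. The library of Upf3b-KO cerebellum replicate 1 held only 64981 counts and was left out, so that group has n = 3 and all others n = 4. Upf3b itself lay between 14.2 and 15.7 CPM in Ctrl FC and between 0.229 and 0.857 CPM in Upf3b-KO FC, and between 20.9 and 23.6 CPM in Ctrl cerebellum and between 0.617 and 0.965 CPM in Upf3b-KO cerebellum, so every library matched its genotype label. Emx2, a homeodomain factor of the dorsal forebrain, lay between 17.3 and 21.7 CPM in the FC libraries and between 0 and 0.0289 CPM in the cerebellar ones. By this gene every library matched its region label. A single gene cannot show whether a library also held tissue from outside its region.

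Genotypes and regions were compared with edgeR's quasi-likelihood test over all genes with enough counts, with Benjamini-Hochberg adjustment, and all adjusted p-values below come from it. A gene is called when its adjusted p is under 0.01 and its fold change over 2, the thresholds the study used for genes, and it is said to pass when its adjusted p is under 0.05. Log2 fold changes are fitted values with their SE. Scaling between libraries was by edgeR's TMM factors, which puts fitted log2 changes 0.076 below the log2 ratios of CPM in FC and 0.050 below them in cerebellum. Both regions were taken from 4 Upf3b-KO and 4 Ctrl mice, so libraries of different regions share animals. The labels do not say which ones do, and the tests between regions treated all libraries as independent. The p-values measure only the spread between these libraries, which may be partly technical.

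In Ctrl frontal cortex, levels per length of transcript, given as TPM (counts divided by transcript length and scaled to the library's sum), ran from 172 ± 3.86 TPM for Crym to 14.1 ± 2.97 TPM for Cux2 (SD, n = 4). Crym was followed by Neurod6 at 165 ± 1.34 TPM, Lamp5 at 135 ± 2.96 TPM, Cux1 at 56.8 ± 2.81 TPM and Rorb at 36.3 ± 1.23 TPM. Tbr1 at 30.4 ± 0.502 TPM, Fezf2 at 28.5 ± 0.787 TPM and Bcl11b at 27.8 ± 0.451 TPM completed the order. The ranges of libraries overlapped only between the neighbours Fezf2 and Bcl11b. In Upf3b-KO FC, Lamp5 headed the order at 196 ± 1.33 TPM, Crym came behind Neurod6 at 84.1 ± 0.766 TPM, and Fezf2 came last at 14.3 ± 0.641 TPM, with a range that overlapped that of Cux2.

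The upper-layer genes were all higher, and most deep-layer genes lower, in the frontal cortex of Upf3b-KO mice. All 4 upper-layer genes rose, by 0.08 to 0.46 on the log2 scale, while 3 of the 4 deep-layer genes fell, Fezf2 and Crym to about 1/2 of their Ctrl level. Of the 9 genes, 2 were called, beside 10.2% of the 18218 genes tested, and all 9 passed, beside 53.3% of those genes. The share that passed among all genes was thus itself over 1/2, and the median log2 change over all genes was 0.00.

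**Figure D1:**
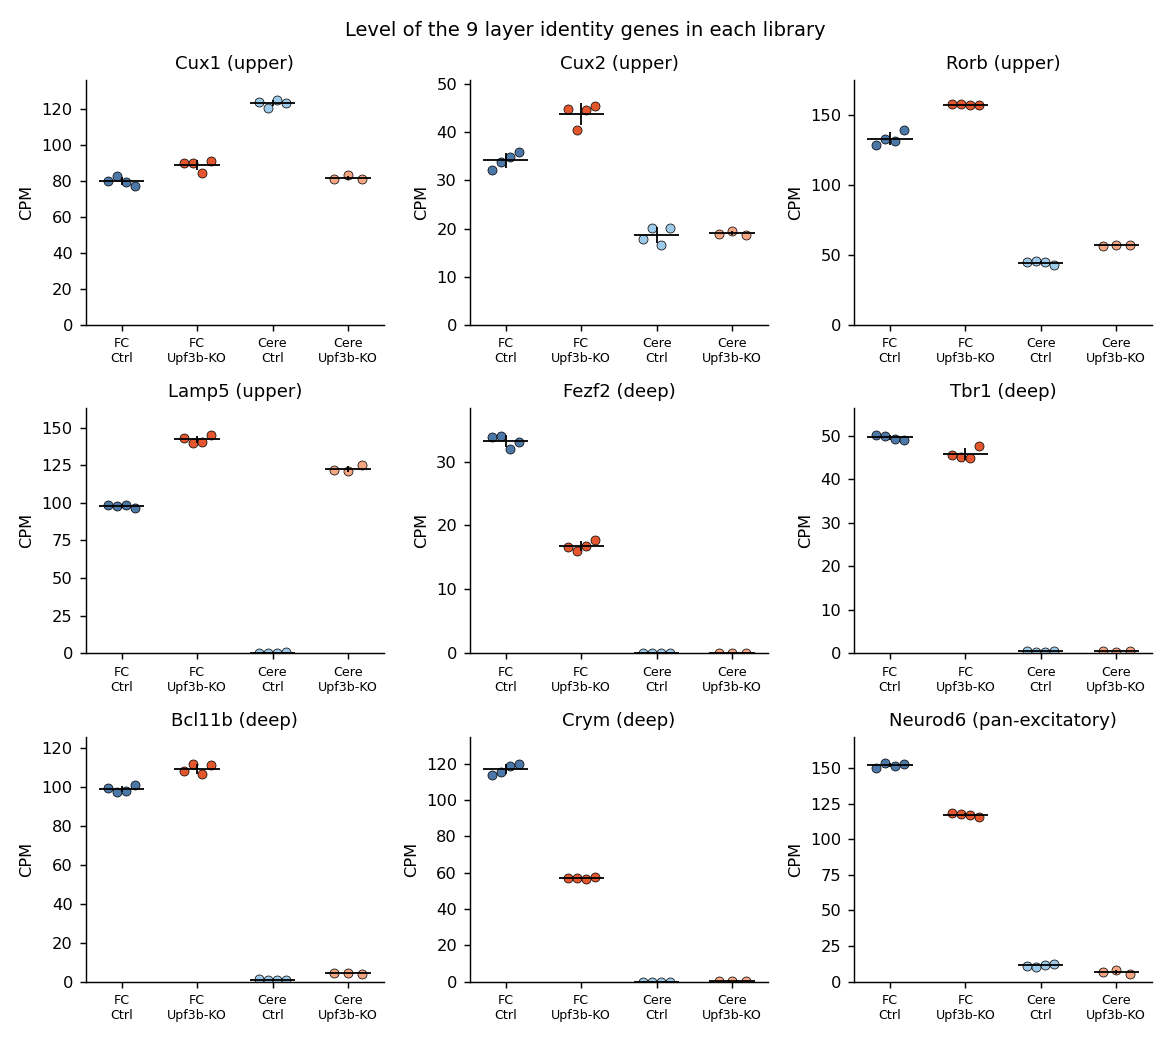
Level of each of the 9 genes in CPM on a linear axis from 0, with a point for each library, a horizontal line for the mean and a vertical line for ± SD in the 4 groups (n = 4, and n = 3 for Upf3b-KO cerebellum). In FC the Ctrl and Upf3b-KO points do not overlap for any gene, and in cerebellum Lamp5 is near 0 in Ctrl and at 121 to 125 CPM in Upf3b-KO.

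Cux1 (ENSMUSG00000029705, GRCm39 chr5:136276755-136596408, minus strand) encodes a homeodomain transcription factor of upper-layer neurons. Its levels were 80.0, 82.7, 79.2 and 77.3 CPM in the Ctrl FC libraries and 90.1, 90.3, 84.7 and 91.0 CPM in the Upf3b-KO ones. The groups did not overlap, although replicate 3 of Upf3b-KO stood below its group. The fitted change was small, 0.08 ± 0.03 (SE) on the log2 scale with an adjusted p of 0.0234, and it did not pass when replicate 3 or 4 of Ctrl or replicate 1, 2 or 4 of Upf3b-KO was left out (adjusted p 0.0569 to 0.0896).

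The Cux1 locus gives rise to 2 kinds of protein. The long coding form carries the DNA-binding domains, while the short form, known as CASP, shares the first part of the protein and ends in a membrane anchor without the homeodomain. The annotated transcripts could be sorted by their stop codon: 5 transcripts with coding lengths of 4166 to 4551 nt share the stop codon of Cux1-201, and 3 transcripts with coding lengths of 1416 to 2034 nt share that of Cux1-211. Cux1-201 and Cux1-211 splice out of the same exon 14, which ends at position 136343161, into an exon 15 that starts at 136341862 in Cux1-201 and at 136286894 in Cux1-211. The 30 bases across each junction are shown, in the direction of transcription and from the GENCODE vM39 transcripts on GRCm39, because they are where the forms part, with the exon that differs in capitals.
Cux1-201 (long form): acagtgacctgagcgGTCCTTACAGCACAA
Cux1-211 (short form): acagtgacctgagcgGGCGCTGTGCGGAGC

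The higher Cux1 level in Upf3b-KO FC lay in the transcripts of the long form. The long-form transcripts summed to 26.4, 27.1, 26.1 and 24.8 CPM in the Ctrl libraries and to 38.0, 35.03, 34.3 and 38.6 CPM in the Upf3b-KO ones, with no overlap. The short-form transcripts summed to 43.4 to 48.6 CPM in Ctrl and to 44.5 to 46.0 CPM in Upf3b-KO, and these ranges overlapped. The long form thus made up 32.7% ± 0.390 of the Cux1 counts in Ctrl and 41.0% ± 1.69 in Upf3b-KO (SD, n = 4), a difference of 8.29 percentage points. An exact two-sided permutation test gave p = 0.0286 for this share, the smallest that 4 against 4 libraries allow, and 0.0686 after Benjamini-Hochberg adjustment over the 6 comparisons of Cux1 forms made in both regions. With groups of this size the adjusted value could not have been below 0.0571, so the correction at 0.05 says nothing about this difference. For the CPM of the long form the exact values were the same, and for the short form the exact permutation p was 0.229. These forms were compared after the transcript values had been seen, and the division of shared reads between them is RSEM's estimate: Cux1-211 shares 1563 of its 3355 bases with Cux1-201.

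**Figure D2:**
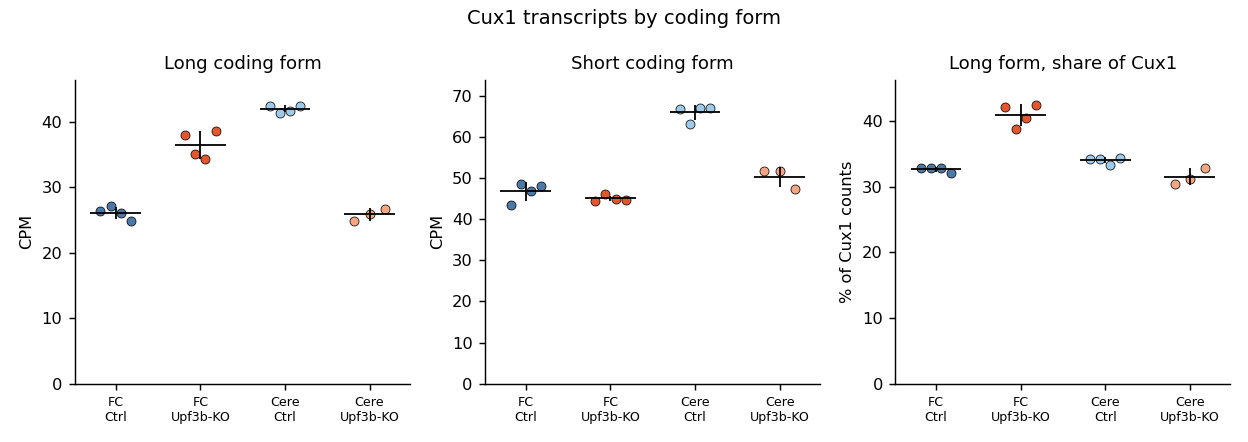
Summed CPM of the Cux1 transcripts with the long and with the short coding end, and the long form's share of all Cux1 counts in percent, on linear axes from 0. Points are libraries, with lines for mean and ± SD, and in FC the Upf3b-KO points of the long form lie between 34.3 and 38.6 CPM, all above the Ctrl points, while the short-form ranges overlap.

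Cux2 (ENSMUSG00000042589, chr5:121994429-122188521, minus strand), the paralog of Cux1 with a like role in upper-layer dendrites and synapses, lay at 32.2, 33.8, 34.9 and 35.8 CPM in Ctrl FC and at 44.8, 40.4, 44.5 and 45.4 CPM in Upf3b-KO FC. Every Upf3b-KO library was above every Ctrl library, and the fitted rise was 0.28 ± 0.04 on the log2 scale (adjusted p 1.43e-05).

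Rorb (ENSMUSG00000036192, chr19:18907969-19088585, minus strand), a nuclear receptor that marks the cortical layer receiving thalamic input, lay at 129, 133, 131 and 139 CPM in Ctrl and at 157, 158, 157 and 157 CPM in Upf3b-KO. The Upf3b-KO libraries were nearly equal and all higher, and the rise was 0.17 ± 0.02 (adjusted p 3.03e-06). Of the 2 main isoforms, Rorb-201 carried 68.5% ± 4.96 of the Rorb counts in Ctrl FC and 70.7% ± 3.16 in Upf3b-KO FC (SD, n = 4), and Rorb-203, which begins with another first exon, carried most of the rest. They share 8648 of the 8759 bases of Rorb-201, so their division is uncertain.

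Lamp5 (ENSMUSG00000027270, chr2:135894159-135911924, plus strand), a brain-specific relative of lysosomal membrane proteins found in upper-layer neurons and in a class of interneurons, changed most among the upper-layer genes. It lay at 98.6, 98.2, 98.9 and 96.4 CPM in Ctrl FC and at 143, 140.1, 141 and 145 CPM in Upf3b-KO FC. The ranges were far apart for their spread, and the rise was 0.46 ± 0.02 on the log2 scale, or 1.38-fold (adjusted p 1.66e-13).

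Among the deep-layer genes, Fezf2 (ENSMUSG00000021743, chr14:10121574-10127680, plus strand), the zinc finger factor that specifies neurons projecting below the cortex, fell most clearly together with Crym. Its levels were 33.8, 34.0, 32.0 and 33.1 CPM in Ctrl FC and 16.6, 15.9, 16.8 and 17.7 CPM in Upf3b-KO FC. The Upf3b-KO libraries all lay near 1/2 of the Ctrl level, and Fezf2 was called, with a log2 change of -1.06 ± 0.05, or 2.09-fold lower (adjusted p 8.09e-14).

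Crym (ENSMUSG00000030905, chr7:119785530-119801514, minus strand) encodes mu-crystallin, which binds thyroid hormone in the cytosol. It lay at 114, 116, 118 and 120.0 CPM in Ctrl FC and at 57.2, 56.9, 56.6 and 57.6 CPM in Upf3b-KO FC. The groups did not come near each other, and Crym was called at a log2 change of -1.11 ± 0.03, or 2.16-fold lower (adjusted p 8.35e-19).

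Tbr1 (ENSMUSG00000035033, chr2:61633274-61644458, plus strand), the T-box factor of neurons projecting to the thalamus, lay at 50.1, 50.01, 49.3 and 49.0 CPM in Ctrl FC and at 45.5, 45.1, 44.9 and 47.6 CPM in Upf3b-KO FC. It was lower in every Upf3b-KO library but by little, and fell by 0.19 ± 0.03 on the log2 scale (adjusted p 5.16e-05).

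Bcl11b (ENSMUSG00000048251, chr12:107876656-107970417, minus strand), also called Ctip2, is a zinc finger factor of deep projection neurons that is abundant in medium spiny neurons of the striatum too. Unlike the other deep-layer genes it was higher in Upf3b-KO, at 99.4, 97.5, 98.2 and 101 CPM in Ctrl FC and at 108, 112, 107 and 111 CPM in Upf3b-KO FC. The groups did not overlap, but the fitted rise was only 0.07 ± 0.03 (adjusted p 0.0240). It did not pass without replicate 2 or 3 of Ctrl or replicate 2 or 4 of Upf3b-KO (adjusted p 0.0647 to 0.0794), nor with no filter on low counts (0.0577).

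Neurod6 (ENSMUSG00000037984, chr6:55654807-55658326, minus strand), a basic helix-loop-helix factor of forebrain excitatory neurons, lay at 150.1, 153, 151 and 153 CPM in Ctrl FC and at 118, 118, 117 and 116 CPM in Upf3b-KO FC. All Upf3b-KO libraries were lower, and the fall was -0.45 ± 0.02 on the log2 scale (adjusted p 6.25e-14).

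The balance between upper-layer and deep-layer genes can be written as a single number for each library, the mean log2(CPM + 0.5) of the 4 upper-layer genes minus that of the 4 deep-layer genes. It lay between 0.19 and 0.24 in the Ctrl FC libraries and between 1.02 and 1.06 in the Upf3b-KO ones. The summed level of the upper-layer genes went from 345 ± 4.12 to 432 ± 5.49 CPM, and that of the deep-layer genes from 299 ± 2.88 to 229 ± 4.08 CPM (SD, n = 4). The difference in balance came mostly from Fezf2 and Crym, and no test was made of it because the genes were chosen with results of these data known.

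**Figure D3:**
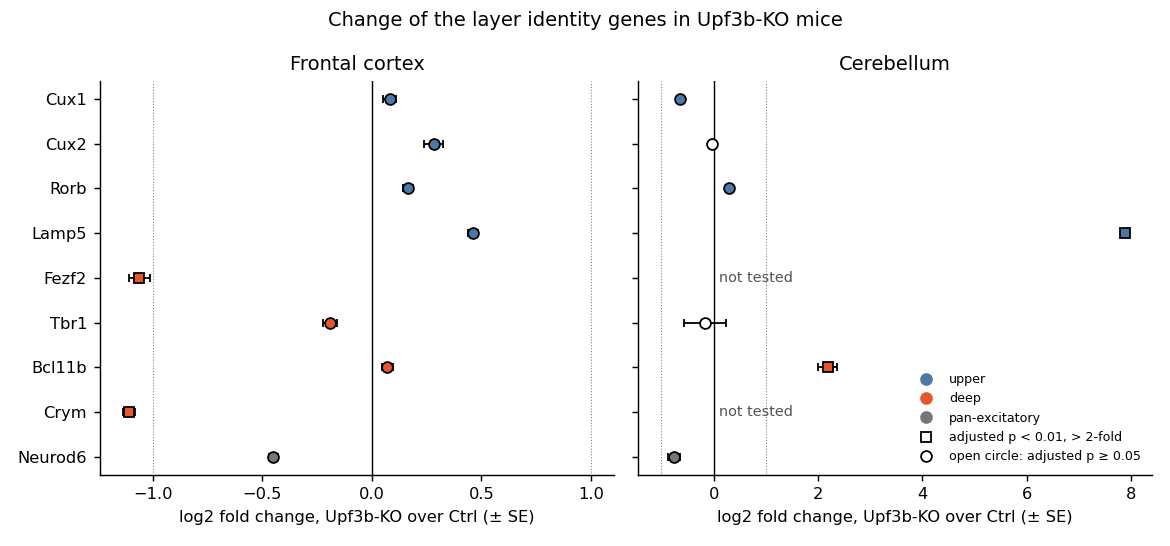
Fitted log2 fold change of each gene, Upf3b-KO over Ctrl, with its SE, in frontal cortex and in cerebellum, on separate horizontal scales. Squares are called genes, open circles did not pass, dotted lines mark a 2-fold change, and the called genes are Fezf2 and Crym in FC (both lower) and Lamp5 and Bcl11b in cerebellum (both higher).

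Other genes of the same layers, listed by name, did not repeat this split with the same clarity. Among 19 other upper-layer genes, 9 rose and 4 fell in FC at an adjusted p under 0.05, with a median log2 change of 0.06. The 2 genes called, both higher, were a share close to the 10.2% called over all genes, of which 1668 of 1861 were also higher. These were Kcnh5, a voltage-gated potassium channel, at 13.1 ± 0.563 CPM in Ctrl and 31.0 ± 3.31 CPM in Upf3b-KO (SD, n = 4, log2 change 1.17 ± 0.07), and Cdh24, a cadherin, at 1.55 to 1.98 and 4.56 to 5.21 CPM (1.37 ± 0.14). Lhx2, a LIM homeodomain factor, fell from between 62.6 and 64.5 CPM to between 50.9 and 53.6 CPM (-0.36 ± 0.03).

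Among 20 other deep-layer genes, 6 rose and 11 fell, with a median log2 change of -0.18, and 3 were called, all higher, beside the same 10.2% of all genes. Sulf1, a heparan sulfate sulfatase, rose from between 10.4 and 11.4 CPM to between 68.2 and 72.7 CPM (2.61 ± 0.04), and Syt6, a synaptotagmin, from between 11.2 and 12.6 CPM to between 34.7 and 38.3 CPM (1.51 ± 0.05). The third was Oprk1, the kappa opioid receptor, at 2.61 to 3.91 and 12.0 to 12.7 CPM (1.78 ± 0.11). The transcription factor Etv1 fell from between 152 and 155 CPM to between 107 and 111 CPM (-0.57 ± 0.02). Ldb2, a LIM domain binding cofactor, was chosen after its values were seen and fell from between 66.3 and 71.5 CPM to between 40.4 and 44.0 CPM (-0.80 ± 0.03).

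Among 12 other genes of excitatory neurons in general, 3 rose and 7 fell in FC, and none of the 12 reached a 2-fold change. Slc17a7, the main cortical vesicular glutamate transporter, had a mean of 1269.7 CPM in Ctrl and 1192 CPM in Upf3b-KO and fell by 0.17 ± 0.01 on the log2 scale. Dkk3, a secreted protein of the Dickkopf family, fell by 0.58 ± 0.02, and Arpp21, a cAMP-regulated phosphoprotein, rose by 0.49 ± 0.01.

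**Figure D4:**
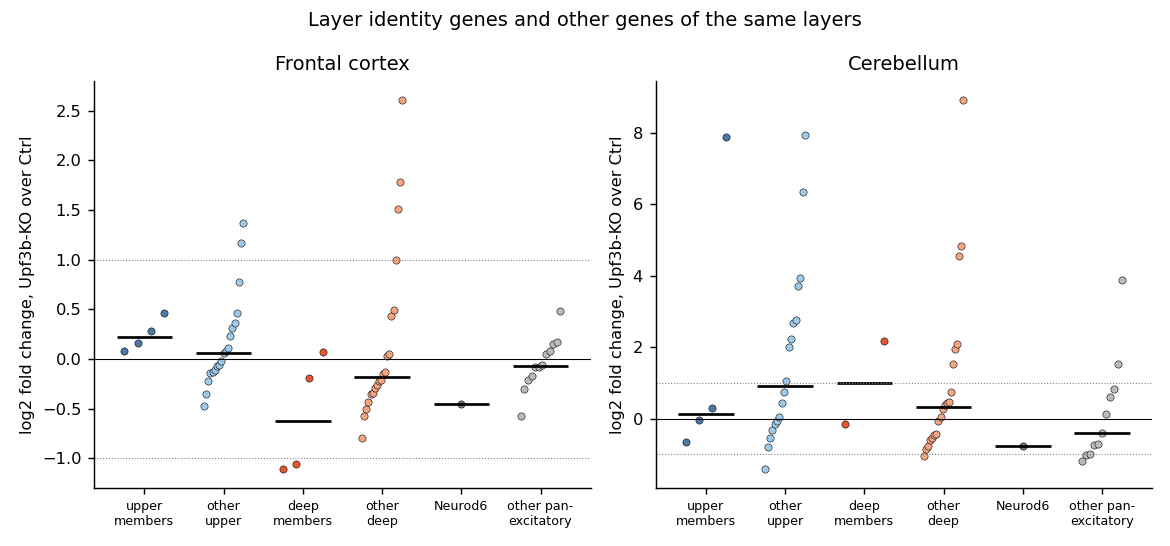
Fitted log2 fold change, Upf3b-KO over Ctrl, of the 9 genes and of other upper-layer, deep-layer and pan-excitatory genes that could be tested, in frontal cortex and in cerebellum, on separate vertical scales. Each point is a gene, thick lines are medians, and dotted lines mark a 2-fold change. In FC the median is 0.06 for other upper-layer genes and -0.18 for other deep-layer genes, and both lists hold genes on either side of 0.

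Markers of cell types outside the cortical layers also differed between the FC libraries, and their part in the changes above was not tested. All 12 markers of striatal medium spiny neurons rose and 11 were called, and their summed level was 247 to 258 CPM in Ctrl and 824 to 833 CPM in Upf3b-KO, with none at 0 in either group. That list includes Foxp1, which is also on the deep-layer list and lay at 73.6 to 77.4 CPM in Ctrl and 106 to 109 CPM in Upf3b-KO. All 6 choroid plexus markers were called higher, with a summed level of 20.8 to 22.1 CPM in Ctrl and 2156 to 2209 CPM in Upf3b-KO. The summed levels of the remaining lists differed far less. All 6 oligodendrocyte markers rose (7556 to 7641 and 10222 to 10296 CPM summed). Of 6 astrocyte markers 5 fell and 1 rose (2949 to 2983 and 2380.0 to 2407 CPM), and of 10 interneuron markers 3 rose and 4 fell (987 to 1001 and 972 to 982 CPM). Of 8 markers of hippocampal neurons 3 rose and 3 fell (438 to 448 and 429.9 to 435 CPM), and 3 were called. Of these Fibcd1 fell from a mean of 81.6 to 39.2 CPM (-1.13 ± 0.03) and Spink8 from 8.67 to 4.31 CPM (-1.08 ± 0.10), falls of about the size of those of Fezf2 and Crym, while Lct rose from 8.05 to 20.3 CPM (1.26 ± 0.07). Of 7 olfactory bulb markers 4 could be tested and 3 fell, and of 8 markers of the cerebral hemispheres 3 rose and 3 fell.

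In the cerebellum of Ctrl mice, most of the genes were low or absent, as a comparison with Ctrl FC shows. Of the 9 genes, 7 were called, all lower in cerebellum, beside 25.1% of the 17521 genes tested. The exceptions were Cux1, which was higher in cerebellum at 124, 121, 125 and 123 CPM (log2 difference from FC 0.57 ± 0.03), and Cux2, which was lower by less than the 2-fold limit at 17.9, 20.02, 16.6 and 20.1 CPM (-0.93 ± 0.06). The region comparisons use the same FC and cerebellar libraries as the genotype comparisons, so the values of these comparisons are not independent.

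In TPM, Cux1 stood first in Ctrl cerebellum at 93.5 ± 1.43 TPM, followed by Neurod6 at 13.0 ± 0.781 TPM and Rorb at 12.6 ± 0.379 TPM, whose ranges overlapped, and by Cux2 at 8.26 ± 0.723 TPM (SD, n = 4). The other 5 genes were all under 1 TPM on average. Fezf2 had 5 counts and Crym 2 counts over the 4 Ctrl cerebellar libraries, beside 4417 and 15557 counts in Ctrl FC. Per count of library the Ctrl FC level was 840.2 times that of cerebellum for Fezf2 (95% interval 359.8 to 2589, counting error only) and 7398 times for Crym (2048 to 61095).

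In Upf3b-KO cerebellum Lamp5 appeared at a cortical level, Bcl11b rose from near 0 to a few CPM, and Cux1 and Neurod6 fell. Fezf2 and Crym had too few counts to be tested in this comparison, and with no filter on low counts all 9 genes were tested and 3 were called, all higher. Of the 7 genes tested, 2 were called, Lamp5 and Bcl11b, both higher, beside 13.2% of the 17785 genes tested, and 5 passed, beside 64.4%. The share that passed was therefore near that of all genes.

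Lamp5 lay at 0.463, 0.470, 0.297 and 0.795 CPM in Ctrl cerebellum and at 122, 121 and 125 CPM in Upf3b-KO cerebellum, against 63 counts in all Ctrl and 12004 in all Upf3b-KO libraries. No library was in between, and the log2 change was 7.88 ± 0.08, or 236-fold (adjusted p 1.08e-22). The shallow library of Upf3b-KO replicate 1, which was not used, held 6 counts of Lamp5, or 92.3 CPM. In Upf3b-KO mice the cerebellar level was below that of FC by only -0.23 ± 0.02 on the log2 scale, so that Lamp5 was 7.67 log2 units lower in cerebellum than in FC in Ctrl mice but nearly equal in Upf3b-KO mice. In TPM it stood first among the 9 genes in Upf3b-KO cerebellum, at 167 ± 6.73 TPM (SD, n = 3).

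Bcl11b lay at 1.27, 0.706, 0.891 and 0.868 CPM in Ctrl cerebellum and at 4.71, 4.40 and 4.17 CPM in Upf3b-KO cerebellum. The groups were well apart, and the rise was 2.18 ± 0.19, or 4.54-fold (adjusted p 6.13e-09). At 1.25 ± 0.0777 TPM its level in Upf3b-KO cerebellum was still far below the 30.8 ± 0.746 TPM of Upf3b-KO FC.

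Crym had 2 counts over 4 Ctrl libraries, all in replicate 4, and 22 counts over 3 Upf3b-KO libraries, at 0.279, 0.255 and 0.147 CPM. The ratio of the levels was 14.2, with a 95% interval of 3.49 to 125 for counting error only. Fezf2 had 5 counts in Ctrl, in replicates 1 and 2, and 0 counts in Upf3b-KO, which allows a level of up to 0.0306 CPM over the 3 libraries. Tbr1 lay at 0.330 to 0.615 CPM in Ctrl and at 0.369 to 0.454 CPM in Upf3b-KO, with overlapping ranges and no passing test (log2 change -0.16 ± 0.40, adjusted p 0.754). Among Fezf2, Tbr1, Bcl11b and Crym, then, Bcl11b alone reached 1 CPM in any Upf3b-KO cerebellar library.

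Cux1 fell in cerebellum, from 124, 121, 125 and 123 CPM to 81.4, 83.3 and 81.2 CPM, by -0.64 ± 0.03 on the log2 scale (adjusted p 7.30e-14). Both coding forms were lower: the long form lay at 41.4 to 42.5 CPM in Ctrl and 24.8 to 26.8 CPM in Upf3b-KO, and the short form at 63.2 to 67.0 and 47.4 to 51.7 CPM. The share of the long form was 34.0% ± 0.468 in Ctrl (n = 4) and 31.6% ± 1.25 in Upf3b-KO (n = 3), with an exact two-sided permutation p of 0.0571, the smallest that 4 against 3 libraries allow.

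Neurod6 fell from 11.3, 10.6, 11.8 and 12.1 CPM to 7.05, 8.29 and 5.61 CPM (-0.76 ± 0.11, adjusted p 1.09e-05), and the groups did not overlap. Rorb rose from 44.8, 45.3, 44.7 and 42.6 CPM to 55.9, 57.3 and 56.9 CPM (0.30 ± 0.04, adjusted p 4.14e-07). Cux2 lay at 18.9, 19.5 and 18.7 CPM in Upf3b-KO, within the range of the Ctrl libraries. Its fitted change was -0.02 ± 0.07 (adjusted p 0.799), and the log2 ratio of its mean CPM has the other sign, at 0.03.

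Of 8 genes that mark the cerebral hemispheres, 5 had enough counts to be tested in cerebellum, 2 of them were called higher and 3 fell. Lmo3, a LIM-only cofactor, rose from a mean of 1.03 to 17.5 CPM (4.03 ± 0.14), and Nrgn, the neuronal calmodulin-binding protein neurogranin, from 1.68 to 5.05 CPM (1.54 ± 0.15). Slc17a7, Camk2a and Mef2c, the most abundant of the list, fell by 0.71, 0.73 and 0.72 on the log2 scale, and the summed level of the list was 609 to 626 CPM in Ctrl and 408 to 410.0 CPM in Upf3b-KO. Slc17a7 alone, at a mean of 457 CPM in Ctrl and 289 CPM in Upf3b-KO, made up most of that sum. Emx2 was the only marker of the list at 0 in all 3 Upf3b-KO libraries.

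Markers of other cells moved with the genotype in cerebellum as well, and their part in the levels of Lamp5, Bcl11b and Cux1 was not tested. Of 12 markers of midbrain, brainstem and thalamus, 9 rose and 3 fell, and 8 were called higher. Their summed level was 108 to 116 CPM in Ctrl and 447 to 456 CPM in Upf3b-KO, with none at 0. Hoxb5 rose from a mean of 0.0418 to 28.1 CPM (9.29 ± 0.196) and Hoxa5 from 0.0319 to 9.09 CPM (7.95 ± 0.235). Both were under 3 counts in each Ctrl library. Slc17a6 rose from 9.36 to 156 CPM (4.004 ± 0.0379), and Slc6a5 by 2.28 ± 0.0296 to 176 CPM. The markers that fell were Tcf7l2 (-0.47), Tfap2b (-0.58) and En1 (-0.89). All 6 choroid plexus markers were called higher (25.04 to 28.8 and 1369 to 1391 CPM summed). The markers of the main cerebellar neurons went the other way. All 7 Purkinje cell markers fell and 6 were called (11132 to 11284 and 4472 to 4484 CPM), and all 8 granule cell markers fell and 4 were called (4046 to 4091 and 2218 to 2224 CPM). All 6 oligodendrocyte markers rose and 5 were called (6208 to 6328 and 14389.9 to 14493 CPM), and 5 of 6 astrocyte markers fell and 1 was called (4725 to 4758 and 3216 to 3243 CPM). Of 10 striatal markers that could be tested, 6 rose and 1 fell (305 to 320 and 241 to 245 CPM), and 4 were called, all higher, among them Tac1 at a mean of 0.202 CPM in Ctrl and 18.6 CPM in Upf3b-KO, with Six3 at 0 in both genotypes. The striatal marker that fell, Ppp1r1b, went from a mean of 243 to 127 CPM and made up most of the summed level in both genotypes. Of 10 interneuron markers 3 rose and 6 fell, and the 3 that rose were called. The neuropeptide gene Sst rose from a mean of 0.971 to 38.2 CPM (5.24 ± 0.08), the neuropeptide gene Vip from 0.0465 to 4.15 CPM (6.29 ± 0.38), and Ndnf from 7.95 to 16.8 CPM (1.03 ± 0.09). In Ctrl cerebellum Vip was at or under 3 counts in each library. Of 7 hippocampal markers tested 2 rose, both called, and 4 fell, 1 of them called, with Fibcd1 going from 0.439 to 7.98 CPM (4.11 ± 0.18). Of 6 olfactory bulb markers tested 2 rose, 1 of them called, and 3 fell.

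Some other layer genes were also higher in Upf3b-KO cerebellum. Of 18 other upper-layer genes tested, 9 were called higher and 1 lower, with a median log2 change of 0.90, and of 20 other deep-layer genes 6 were called higher and 1 lower, with a median of 0.33, beside a median of 0.01 over all genes. Of all genes tested in cerebellum 13.2% were called, 1831 higher and 508 lower. Rasgrf2, a Ras exchange factor, rose from between 2.42 and 3.04 CPM to between 42.5 and 45.4 CPM (3.94 ± 0.07), and Kcnh5 from between 0.470 and 0.794 CPM to between 7.68 and 9.19 CPM (3.73 ± 0.17). Lhx2, at 0 in all Ctrl cerebellar libraries, lay at 0.880 to 1.12 CPM in Upf3b-KO. The deep-layer genes called higher were Ntsr1, Hs3st4, Oprk1, Rprm, Ldb2 and Nxph4, named after their values were seen. Ntsr1, also at 0 in all Ctrl cerebellar libraries, lay at 1.59 to 2.30 CPM in Upf3b-KO. Oprk1 rose from a mean of 0.269 to 6.60 CPM.

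The genes called lower in these lists were the calcium-binding protein Calb1 and Pcp4, a calmodulin regulator, both of which are also abundant in Purkinje cells. Calb1 fell by 1.41 ± 0.01 on the log2 scale, from a mean of 2601 to 1009.7 CPM, and Pcp4 from between 844 and 867 CPM to between 418 and 437 CPM (-1.05 ± 0.02). Zfpm2, a zinc finger cofactor, fell by 0.77 ± 0.03 and Etv1 by 0.46 ± 0.02. Of 11 other pan-excitatory genes tested, 2 were called higher and 2 lower. Neurod1, a granule cell factor related to Neurod6, fell by 1.17 ± 0.02, while Nptx1 (-0.996 ± 0.02) and Slc17a7 (-0.71 ± 0.02) fell without being called.

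The difference between the regions in the effect of genotype was tested as an interaction over all 15 libraries, without a term for the mice that the regions share. Of the 9 genes, 3 were called, beside 9.40% of the 19831 genes tested, and 7 passed, beside 48.0%. Lamp5 had the largest interaction, 7.41 ± 0.08 on the log2 scale (adjusted p 2.36e-28), and Bcl11b followed at 2.10 ± 0.13 (adjusted p 3.48e-13). Crym was called at 4.59 ± 0.62 (adjusted p 7.31e-07), but that value rests on 2 counts in Ctrl cerebellum and is no measure of size.

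Among the genes that passed without being called, Cux1 had an interaction of -0.73 ± 0.04, since it rose in FC and fell in cerebellum. Cux2 (-0.31 ± 0.08) and Rorb (0.13 ± 0.04) followed. Neurod6 was at -0.32 ± 0.09 (adjusted p 0.00352), but at -0.16 with an adjusted p of 0.0924 without replicate 4 of Upf3b-KO cerebellum. Fezf2 (adjusted p 0.127) and Tbr1 (0.960) did not pass, and Fezf2 had no count in Upf3b-KO cerebellum to compare.

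Within Upf3b-KO mice, 7 of the 9 genes were called between the regions, all lower in cerebellum, beside 22.7% of the 18965 genes tested. Cux1 and Lamp5 were the exceptions, lower in cerebellum by only 0.13 ± 0.03 and 0.23 ± 0.02 on the log2 scale. In Ctrl mice the exceptions had been Cux1 and Cux2, so that Lamp5 left and Cux2 (-1.22 ± 0.05) joined the called genes.

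Estimates for single transcripts varied far more between replicates than gene sums did: the biological coefficient of variation was 49.5% for transcripts and 3.99% for genes in FC. Of 27 transcripts of the 9 genes tested in FC, 1 was called, beside 3.22% of the 42318 transcripts tested, and 6 passed, beside 16.4%. The called transcript was Crym-201, which carried 99.2% of the Crym counts in Ctrl FC and fell by 1.10 ± 0.02 on the log2 scale (adjusted p 6.79e-08). The count called was 2, both lower, without replicate 1 or 3 of Ctrl or replicate 2 or 4 of Upf3b-KO. Lamp5-201 and Lamp5-202 rose by 0.48 ± 0.05 and 0.47 ± 0.06, and Fezf2-201 fell by 0.99 ± 0.08, just within the 2-fold limit.

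Of 24 transcripts tested in cerebellum, 5 were called, beside 4.76% of the 44388 transcripts tested, and 12 passed, beside 22.6%. Lamp5-201 rose by 8.56 ± 0.41 and Lamp5-202, which has no annotated coding sequence, by 7.33 ± 0.35, and Bcl11b-201 rose by 2.04 ± 0.23. The other called transcripts were lower: Cux1-208, an incomplete coding model, by -1.16 ± 0.21, and Cux1-214, an intron-retaining one, by -1.72 ± 0.21. The count of lower calls went from 2 to 1 when any single Ctrl library or replicate 2 of Upf3b-KO was left out.

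Among transcripts of the 9 genes with an annotated stop codon, only Cux1-203 and Cux1-213 had it at least 50 nt before the last exon junction. Transcripts without an annotated stop codon, among them Lamp5-202 and Cux1-214, could not be assessed. The study marked candidate NMD targets by such a junction, by an extended untranslated region after the stop codon, or by both. The length of that region was not examined here. Cux1-213 lay at 1.08 to 6.46 CPM in Ctrl FC and 2.23 to 4.96 CPM in Upf3b-KO FC and did not pass (adjusted p 0.933). In cerebellum it fell from between 6.28 and 7.44 CPM to between 1.68 and 4.33 CPM (log2 change -1.45 ± 0.36, adjusted p 0.0277). Cux1-203 lay under 1 CPM in every library, was not tested in FC, and did not pass in cerebellum (adjusted p 0.747). Neither was thus higher in Upf3b-KO by the test in a region where it could be tested.

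As a description of the pattern over the 15 libraries, each gene was compared with the 11985 genes of at least 5 CPM on average by Pearson's r of log2(CPM + 0.5). The libraries form 4 clusters by region and genotype, so these values mostly reflect the differences between groups. The gene most like Lamp5 was Htr2c, a serotonin receptor (r = 0.996), at 26.5 and 36.2 CPM on average in Ctrl and Upf3b-KO FC and at 0.849 and 42.9 CPM in Ctrl and Upf3b-KO cerebellum. That order differs from Lamp5 in one respect: its mean was highest in Upf3b-KO cerebellum, where that of Lamp5 was highest in Upf3b-KO FC.

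For the deep-layer genes the nearest patterns were those of Olfm1 for Fezf2 (r = 0.999), Fam171b for Crym (0.999), Hpcal4 for Tbr1 (0.999) and Cx3cl1, a chemokine of neurons, for Bcl11b (0.999). Olfm1 was nonetheless at 236 CPM on average in Ctrl cerebellum, where Fezf2 was near 0, so a high r here does not stand for a like level. Ppp1r16b was nearest to Cux1 (0.990), Ccl27a to Cux2 (0.993), Ncdn to Rorb (0.999) and Rasgef1a to Neurod6 (0.998). The deep-layer gene Foxp1 was among the 3 genes nearest to Cux2 (0.987).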

How the data were processed

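The authors removed ribosomal RNA, built libraries by the SMART-Seq method and read them in pairs on an Illumina NovaSeq. Per the methods and the submitters' processing notes, reads were aligned with STAR 2.5.2b to GRCm39 and RSEM quantified transcripts. For each region a matrix was deposited that holds RSEM's expected count of every Ensembl transcript, which the authors did not scale for depth or length. RSEM divides reads that match several transcripts, so isoform values are estimates, and whether strand was used is not given in the sources used here.

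Transcripts were matched by identifier to GENCODE vM39 on GRCm39 (141102 of 142435 matched), a later release than that of the authors, and were summed per gene. The rounded counts went into edgeR 4.0.16 under R 4.3.3 (with limma 3.58.1 and data.table, version 1.17.8): filterByExpr (minimum count 10, minimum total 15), TMM scaling, the quasi-likelihood test and Benjamini-Hochberg adjustment over all genes or transcripts tested. Each SE is the absolute log2 fold change over the root of its F statistic. TPM was computed from the annotated transcript lengths. On simulated counts the fits were tested with known changes. A floor is 3 counts of a library, and floors and intervals cover counting error only.

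The 9 genes and all lists were chosen with earlier results of these data known. Other layer genes are named when they had the 3 smallest adjusted p in their list, and any further ones were chosen after their values were seen. Transcripts are named when called, when they carry at least 10% of their gene, or by their coding form. Alternatives were DESeq2 1.42.0, median-of-ratios scaling, other filters and thresholds, unrounded counts, the replicate number as a block, the shallow library included, and each library left out in turn.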

Additional observations from a re-analysis of the deposited data

Results flagged for a closer look

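The genotype effect differed between the regions for 3 genes by the interaction test: Lamp5 (log2 interaction 7.41), Bcl11b (2.10) and Crym (4.59), the last resting on 2 counts in Ctrl cerebellum. Cux1 stood out for a single library in Upf3b-KO FC: replicate 3, at 84.7 CPM, lay below the others, with a gap to the nearest library of 0.866 of the group's range, above Dixon's critical value for 4 samples. Crym in Ctrl cerebellum had a gap of 1 of the range, because replicate 4 held its 2 counts and the others none. Of 27 groups tested in this way, chance flags about 1 in 20.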

How the results depend on the processing

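With no fold limit at an adjusted p under 0.05, the count of genes called became 9 in FC, 5 in cerebellum and 7 for the interaction, and that of transcripts 6 in FC and 12 in cerebellum. A fold limit of 1.5 gave 4 genes in cerebellum and 2 transcripts in FC. DESeq2 gave the same counts of genes called in every comparison, 1 transcript in FC, and 7 transcripts in cerebellum, 4 of them lower. Leaving out 1 library gave 1 to 2 transcripts called in FC, with 2 without replicate 1 or 3 of Ctrl or replicate 2 or 4 of Upf3b-KO. In cerebellum it gave 4 to 5, and the shallow library included or no filter on low counts gave 4, with 1 lower call in place of 2. With the replicate number as a replicate block, 2 transcripts were called in cerebellum against 5 without it, none of them lower, and the counts of genes called were the same in every comparison (2, 2, 7, 7 and 3). Deviations of libraries with the same number correlated at between -0.0987 and 0.153, and those with different numbers at between -0.199 and 0.169. The 2 ranges are alike, so this check cannot show whether the numbers pair the samples.

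The sign turned only for changes that did not pass. Cux2 in cerebellum was at 0.0132 without Ctrl replicate 2, 0.0128 without Ctrl replicate 4 and -0.0739 without Ctrl replicate 3. Tbr1 in cerebellum ranged from -0.278 without Ctrl replicate 3 to 0.00828 without Ctrl replicate 4. The Tbr1 interaction was at -0.0517 and -0.0897 without Ctrl cerebellum replicate 2 or 3, at 0.177 without replicate 4, and at -0.00279 without Upf3b-KO cerebellum replicate 2. The difference in the Cux1 long-form share in FC, examined after seeing the data, was 7.80 to 9.01 percentage points with each library left out and 6.02 points from TPM. The cause of these shifts was not tested. Depth limits Fezf2, Tbr1 and Crym in cerebellum, where they are near the floor.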
